A study of Mus musculus with 4 samples.

Results

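The genes described here encode the transforming growth factor-β (TGF-β) ligands, their receptors, members of the family that holds the ligands latent in the matrix, and a matrix protein. The 10 genes were the ligands Tgfb1, Tgfb2 and Tgfb3, the receptors Tgfbr1, Tgfbr2 and Tgfbr3, the latent TGF-β binding proteins Ltbp1, Ltbp2 and Ltbp3, and Tgfbi, a matrix protein named for its induction by TGF-β. They were chosen by gene symbol, with earlier results of these data known. All 10 were found among the 24346 rows of the expression table. RNA-seq was performed in mBMSCs, primary mesenchymal stem/progenitor cells cultured from the marrow of wild-type C57BL/6 mice (C57BL/6J in the study's methods) aged 3 months, which carried no transgene or deletion. The cells were transfected by lipofection with a scrambled control siRNA (siScr, 2 samples) or with siRNA against ZBP1, a Z-DNA binding protein and sensor of foreign nucleic acid (siZBP1, 2 samples). The comparison addressed how the transcripts of mBMSCs change when ZBP1 is depleted. The sources do not say whether the samples of a group came from separate mice or cultures, so p-values measure the spread between these samples, which may be technical.

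TGF-β is secreted as a latent complex in which the mature dimer stays wrapped in its own propeptide, and a latent TGF-β binding protein anchors this complex to the matrix until integrins or proteases release the ligand. The released dimer is bound by the type II receptor (Tgfbr2), which recruits and phosphorylates the type I receptor (Tgfbr1), and the latter phosphorylates SMAD proteins that enter the nucleus. In bone, TGF-β stored in the matrix and released during resorption is known to recruit mesenchymal progenitors and to promote their proliferation and early commitment while restraining the late steps of osteoblast and adipocyte differentiation.

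Zbp1 was at 86.0 and 62.0 FPKM (sequenced fragments scaled to transcript length and to the mapped reads of the sample) in the siScr samples and at 11.5 and 11.6 FPKM in the siZBP1 samples, 6.40-fold lower (log2 fold change -2.56, SE 0.16, limma adjusted p = 0.00322). With a siZBP1 sample left out, the limma adjusted p for Zbp1 was 0.0618 without replicate 1 and 0.0510 without replicate 2. FPKM summed to between 477974 and 492166 per sample. Numbers of reads were not given, and the spacing of low values gave relative depths of 1.4 and 1.87 for siScr and 1.00 and 1.61 for siZBP1. Each gene was compared with limma, which fits a linear model and draws the variance of a gene towards that of genes at a similar level. The fit used log2(FPKM + 1) for the 11959 genes averaging 1 FPKM or more. The added 1 makes fold changes on this scale smaller for genes at low levels, so ratios of mean FPKM are given as well.

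The cultures also held markers of another cell type. Of 24 macrophage marker symbols searched, 23 were in the table, and none of these was at 0. Their summed level was 13337 and 14475 FPKM in siScr and 19418 and 18569 FPKM in siZBP1. Macrophage markers rose in 14 and fell in 0 of 23 tested (median log2 fold change 0.30), against 13.5% of all genes tested that rose and 14.8% that fell, with Mrc1, the mannose receptor, at 42.7 ± 8.71 (SD, n = 2) and 102.1 ± 0.792 FPKM and Lyz2, a lysozyme, at 3230 ± 589 and 5636 ± 332 FPKM. Lyz1 rose by 0.82 on the log2 scale, whereas Ctss, an abundant lysosomal protease, did not pass the test (log2 fold change -0.15, limma adjusted p = 0.0818). The 16 mesenchymal markers summed to 4252 and 3954 FPKM in siScr and 4104 and 4097 FPKM in siZBP1. Of 15 mesenchymal markers tested, 4 fell and 1 rose (14.8% and 13.5% of all genes, median -0.21), among them Cxcl12, a chemokine of marrow stroma (-2.81), Prrx1, a limb mesenchyme transcription factor (2.05-fold lower), and Nt5e, the surface enzyme CD73 (2.16). Pdgfrb (-0.44) and Cd44 (-0.35) fell as well. Sparc (0.14) and Vim (0.02), the most abundant of that list, did not pass. Sparc and Vim averaged 1631 and 1385 FPKM in siScr and 1801 and 1407 FPKM in siZBP1, and so made up most of the list's sum. Endothelial markers summed to between 9.50 and 10.3 FPKM, with 6 of 8 under the filter. Among the endothelial markers tested, Kdr had a log2 fold change of 0.22 and Vwf of -0.08, and neither passed. Of 8 platelet markers, 6 were under the filter, among them Gp6 at 0 in all samples. Pf4 (0.42) and Gp1bb (-0.22) did not pass. Among lymphoid and granulocyte markers, Cd3g, S100a9, Elane and Mpo were at 0 in all samples, Cd79a stayed at or below 0.208 FPKM, and S100a8 was at 4.52 FPKM in siZBP1 replicate 2 and at most 0.597 FPKM elsewhere. In bulk samples, fewer cells of a type and less RNA per cell cannot be told apart. The part of the macrophage and mesenchymal makeup in the results that follow was not tested.

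Transcripts of the TGF-β genes were mostly lower after ZBP1 depletion. By limma, 6 of the 10 fell (Tgfb2, Tgfb3, Tgfbr2, Tgfbr3, Ltbp1 and Ltbp2), against 14.8% of all genes tested. Tgfbr1 alone rose, 1 of 10 against 13.5% of all genes. Tgfb1, Ltbp3 and Tgfbi did not pass the adjusted p of 0.05. By the ratio of group means, 5 of 10 were over 1.5-fold lower, against 13.8% of genes with values in both groups, and 0 of 10 were over 1.5-fold higher, against 10.7%. The siScr and siZBP1 samples did not overlap for any of the 10 genes, with siZBP1 lower for 7 against 33.7% of genes tested and higher for 3 against 34.7%. The log2 fold changes of the 10 genes had a median of -0.49, beside 0.0045 for the 11959 genes tested. With 1 sample left out in turn, all 10 kept their direction. Without either siZBP1 sample most calls were lost, among the 10 as among all genes tested. All 10 passed the filter on low values, Ltbp2 only through its siScr samples, since its mean in siZBP1 was 0.787 FPKM. The falls were spread over the roles, with 2 ligands, 2 receptors and 2 genes of the latent binder family past the threshold. Of that family, Ltbp2 is not known to bind latent TGF-β.

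**Figure D1:**
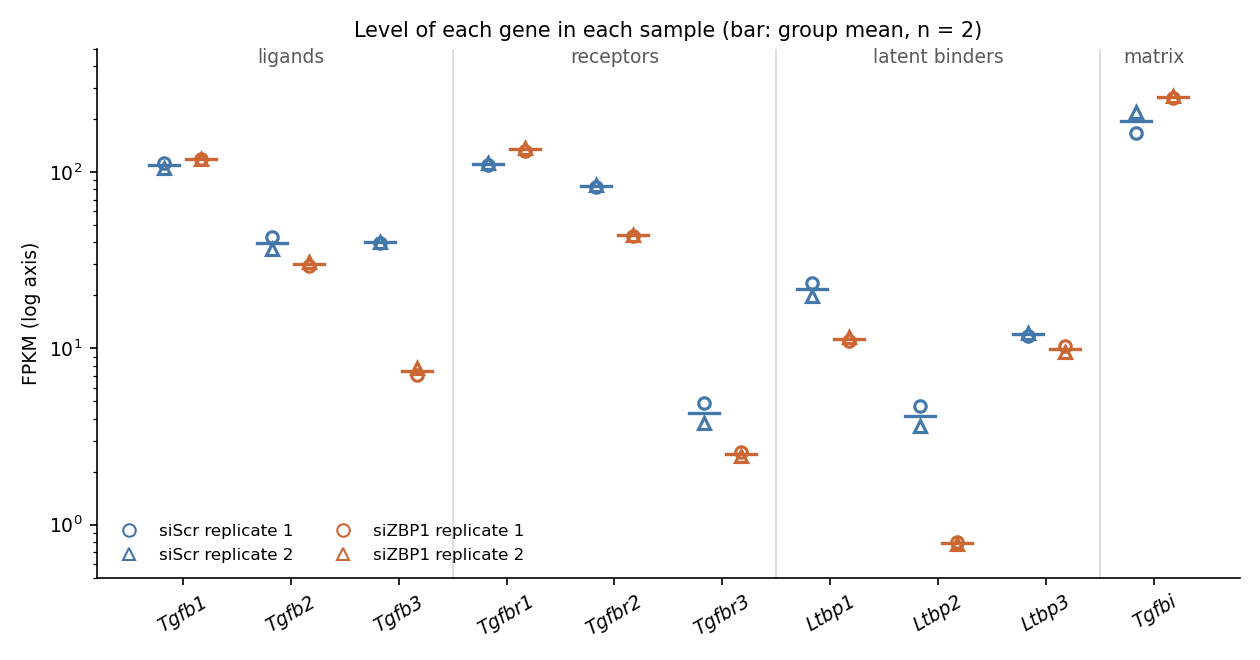
FPKM on a log axis of each TGF-β gene in the siScr samples (blue) and siZBP1 samples (orange), with circles for replicate 1, triangles for replicate 2 and bars for the group mean (n = 2). Tgfb3 and Ltbp2 have the widest gaps between groups, and the siScr and siZBP1 samples do not overlap for any gene.

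Tgfb3 was the member with the largest fall. It encodes the ligand known for palate fusion and for chondrogenic differentiation of mesenchymal cells. Tgfb3 was at 39.7 and 40.4 FPKM in siScr and at 7.09 and 7.78 FPKM in siZBP1. Both siZBP1 samples were far below both siScr samples, and the samples of a group differed by less than 1 FPKM. The group means were 40.1 ± 0.514 (SD, n = 2) and 7.43 ± 0.486 FPKM, a 5.39-fold lower level (log2 fold change -2.28, SE 0.06, limma adjusted p = 0.00150), and Tgfb3 ranked 81 from the lowest log2 fold change among the 11959 genes tested. It was the only member to pass in each fit with 1 sample left out, where its limma adjusted p ranged from 0.00714 to 0.0140.

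Tgfb2, a ligand that needs the co-receptor betaglycan for efficient binding to the type II receptor, was at 42.7 and 36.8 FPKM in siScr and at 29.4 and 30.9 FPKM in siZBP1. Both siZBP1 samples were below the lower siScr sample. The mean fell from 39.8 ± 4.15 to 30.1 ± 1.04 FPKM (SD, n = 2), 1.32-fold lower (log2 fold change -0.39, SE 0.08, limma adjusted p = 0.0321). With 1 sample left out, the log2 fold change of Tgfb2 ranged from -0.49 to -0.28, and the call was lost in some of these fits. Such a fit takes the spread of the group left with 1 sample from the other group.

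Tgfb1, the ligand most abundant in bone matrix, was at 113.6 and 106.1 FPKM in siScr and at 119.6 and 119.8 FPKM in siZBP1. The siZBP1 samples were the higher ones, but lay closer to siScr replicate 1 than the siScr samples lay to each other. The ratio of the means was 1.09 (log2 fold change 0.12, SE 0.05, 95% interval -0.0031 to 0.25), and Tgfb1 did not pass in any fit (limma adjusted p = 0.126).

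The makeup of the ligand transcripts differed accordingly. The 3 ligands summed to 196.0 and 183.4 FPKM in siScr and to 156.1 and 158.4 FPKM in siZBP1. Tgfb1 made up 58.0% and 57.9% of this sum in siScr and 76.6% and 75.6% in siZBP1, a difference of 18.2 percentage points. The share of Tgfb3 was 20.3% and 22.0% in siScr and 4.54% and 4.91% in siZBP1, while that of Tgfb2 was 21.8% and 20.1% in siScr and 18.8% and 19.5% in siZBP1. Tgfb3 and Tgfb2 were therefore level with each other in siScr, and in siZBP1 Tgfb2 stood above Tgfb3 in both samples. For the share of Tgfb1 the exact permutation test, two-sided, gave p = 0.333, the smallest p that 2 samples against 2 allow.

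**Figure D2:**
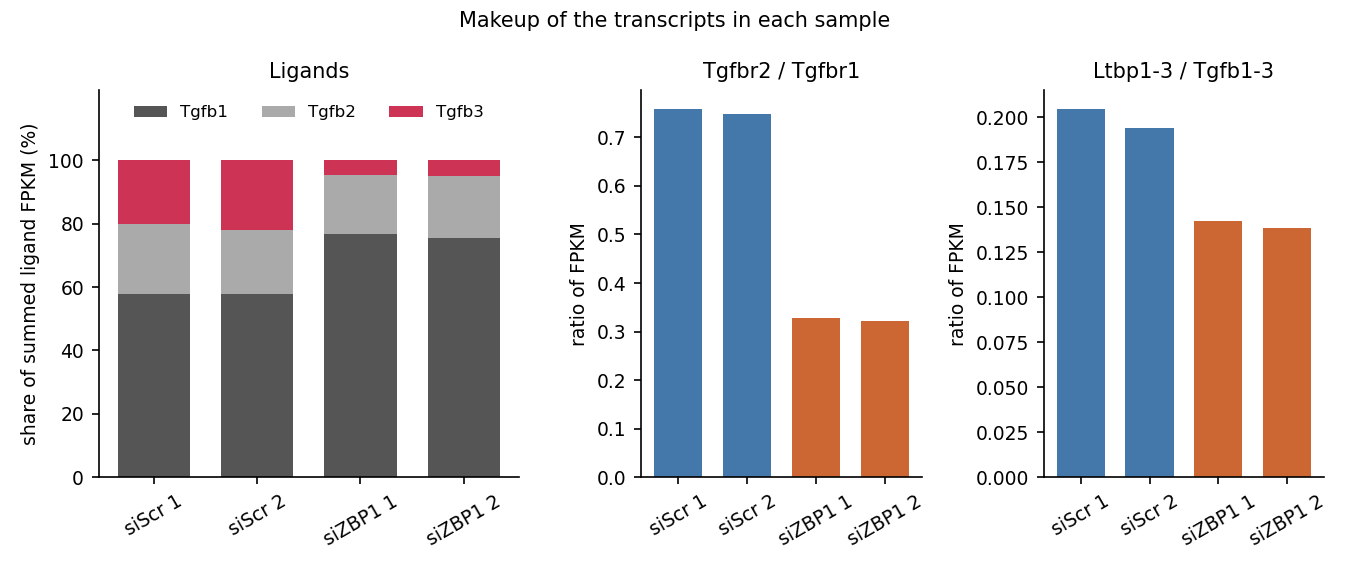
Left, share in percent of the summed FPKM of Tgfb1, Tgfb2 and Tgfb3 that each ligand made up in each sample. Middle and right, ratio of Tgfbr2 to Tgfbr1 FPKM and of summed Ltbp1 to Ltbp3 to summed Tgfb1 to Tgfb3 FPKM in each sample, with siScr in blue and siZBP1 in orange. Tgfb3 shrinks from 20.3% or more to 4.91% or less of the ligand sum, and both ratios are lower in both siZBP1 samples.

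The type I and type II receptors, which signal as one complex, moved apart. Tgfbr2, which binds the ligand first, was at 83.1 and 84.6 FPKM in siScr and at 43.4 and 44.4 FPKM in siZBP1. The samples within each group were close and the groups were well apart. The means were 83.9 ± 1.07 and 43.9 ± 0.683 FPKM (SD, n = 2), 1.91-fold lower (log2 fold change -0.92, SE 0.04, limma adjusted p = 0.00221). The limma adjusted p ranged from 0.00928 to 0.0522 with 1 sample left out, and Tgfbr2 lost the call without siZBP1 replicate 1 (0.0522).

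Tgfbr1, the type I receptor kinase that phosphorylates SMAD2 and SMAD3, was at 109.6 and 113.1 FPKM in siScr and at 132.5 and 137.8 FPKM in siZBP1. It was the only member that rose. The means were 111.3 ± 2.46 and 135.1 ± 3.71 FPKM (SD, n = 2), 1.21-fold higher (log2 fold change 0.28, SE 0.04, limma adjusted p = 0.0146). The limma adjusted p for Tgfbr1 was 0.0551 without siScr replicate 1, 0.104 without siZBP1 replicate 1, 0.114 without siZBP1 replicate 2 and 0.0321 without siScr replicate 2. The ratio of Tgfbr2 to Tgfbr1 FPKM was 0.758 and 0.748 in siScr and 0.328 and 0.322 in siZBP1. This ratio was thus lower by 0.429, with a spread of 0.00709 (SD) in siScr and 0.00385 in siZBP1 (exact permutation p = 0.333, two-sided, the smallest possible).

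Tgfbr3 encodes betaglycan, a proteoglycan co-receptor without a kinase. It was at 4.89 and 3.77 FPKM in siScr and at 2.59 and 2.46 FPKM in siZBP1. The siZBP1 samples lay below both siScr samples, which differed from each other by about as much as the nearer siScr sample did from siZBP1. The means were 4.33 ± 0.786 and 2.53 ± 0.0875 FPKM (SD, n = 2), 1.71-fold lower (log2 fold change -0.59, SE 0.13, limma adjusted p = 0.0366). Tgfbr3 was the least steady of the 6 falls. Its limma adjusted p was 0.0804 without siScr replicate 1, 0.163 without siZBP1 replicate 1, 0.161 without siZBP1 replicate 2 and 0.0291 without siScr replicate 2, and over fits with all samples it ranged from 0.0160 to 0.0642.

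Among the latent binders, Ltbp1 and Ltbp2 fell and Ltbp3 did not pass. Ltbp1, which binds the latent complexes and carries them to fibronectin and fibrillin fibres, was at 23.6 and 19.8 FPKM in siScr and at 11.1 and 11.6 FPKM in siZBP1. The lower siScr sample was well above both siZBP1 samples. The means were 21.7 ± 2.70 and 11.3 ± 0.347 FPKM (SD, n = 2), 1.91-fold lower (log2 fold change -0.88, SE 0.10, limma adjusted p = 0.00774). Without siZBP1 replicate 1 or replicate 2 the limma adjusted p for Ltbp1 was 0.0897 or 0.0726, and without a siScr replicate it was at most 0.0266.

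Ltbp2, a fibrillin-associated matrix protein that differs from its relatives in not being known to bind latent TGF-β, was at 4.69 and 3.62 FPKM in siScr and at 0.796 and 0.778 FPKM in siZBP1. It was the member with the lowest level in siZBP1. The means were 4.15 ± 0.751 and 0.787 ± 0.0130 FPKM (SD, n = 2), 5.28-fold lower (log2 fold change -1.52, SE 0.14, limma adjusted p = 0.00560). At this low level the pseudocount mattered, and with 0.1 in place of 1 the log2 fold change was -2.25. Without siZBP1 replicate 1 or 2 the limma adjusted p for Ltbp2 was 0.0734 or 0.0635, and without a siScr replicate it was at most 0.0255. In the GENCODE M21 annotation 764 of the 8184 exon bases of Ltbp2 are shared with D030025P21Rik on the opposite strand, which was at 0.755 and 0.543 FPKM in siScr and at 0.210 and 0.146 FPKM in siZBP1. Stranded counting is not stated, so reads of a gene and of an antisense partner cannot be told apart.

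Ltbp3, a latent binder needed for normal bone and tooth development, was at 11.8 and 12.2 FPKM in siScr and at 10.4 and 9.56 FPKM in siZBP1. The siZBP1 samples were the lower ones, with a 1.21-fold lower mean (12 ± 0.256 and 9.96 ± 0.575 FPKM, SD, n = 2). Ltbp3 narrowly missed the threshold (log2 fold change -0.25, SE 0.07, limma adjusted p = 0.0570), and over fits with all samples its limma adjusted p ranged from 0.0422 to 0.0850. Ltbp4, the remaining member of the family, was at 0.341 and 0.285 FPKM in siScr and at 0.143 and 0.260 FPKM in siZBP1 and was under the filter.

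The latent binders summed to 40.1 and 35.6 FPKM in siScr and to 22.2 and 21.9 FPKM in siZBP1. Per summed ligand transcript this was 0.205 and 0.194 in siScr and 0.142 and 0.138 in siZBP1, a difference of -0.0589 (exact permutation p = 0.333, two-sided, the smallest possible). With Ltbp2 left out of the sum the difference was -0.0421. Ltbp3 took a larger part of the latent binder sum in siZBP1 (46.6% and 43.6%) than in siScr (29.5% and 34.3%), and Ltbp2 a smaller one (3.58% and 3.55% against 11.7% and 10.2%).

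Tgfbi encodes a secreted adhesion protein that binds collagens and integrins. It was the most abundant of the 10 transcripts in both groups, at 168.3 and 220.7 FPKM in siScr and at 265.1 and 271.5 FPKM in siZBP1. Both siZBP1 samples were above both siScr samples, but the siScr samples differed from each other by more than siScr replicate 2 differed from siZBP1. The means were 194.5 ± 37.0 and 268.3 ± 4.55 FPKM (SD, n = 2), a ratio of 1.38 (log2 fold change 0.47, SE 0.13, limma adjusted p = 0.0601). Here leaving out a siScr sample brought the gene past the threshold, with a log2 fold change of 0.28 and limma adjusted p of 0.0399 without replicate 1 and 0.67 and 0.0107 without replicate 2. Leaving out a siZBP1 sample gave limma adjusted p of 0.226 and 0.227.

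**Figure D3:**
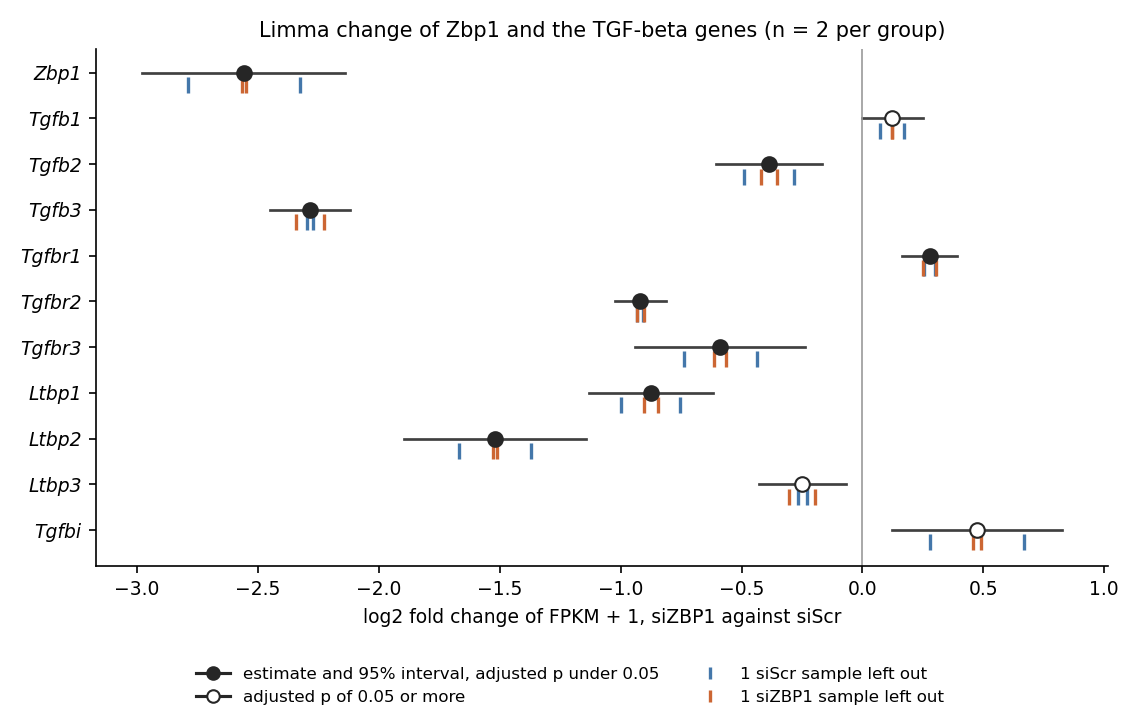
Log2 fold change of FPKM + 1 in siZBP1 against siScr for Zbp1 and the TGF-β genes, with the limma 95% interval (n = 2 per group), filled circles where the adjusted p was under 0.05 and ticks for the estimates with 1 siScr (blue) or 1 siZBP1 (orange) sample left out. Tgfb3 lies at -2.28 and Ltbp2 at -1.52, Tgfbr1 is the filled circle above 0, and no tick is on the other side of 0 from its estimate.

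Levels can be set against each other because FPKM is scaled to transcript length. In siScr the order of mean level ran from Tgfbi through Tgfbr1, Tgfb1, Tgfbr2, Tgfb3, Tgfb2, Ltbp1, Ltbp3 and Tgfbr3 to Ltbp2. The samples of neighbours overlapped for Tgfbr1 and Tgfb1, for Tgfb3 and Tgfb2, and for Tgfbr3 and Ltbp2. In siZBP1 no neighbours overlapped, and the order was Tgfbi, Tgfbr1, Tgfb1, Tgfbr2, Tgfb2, Ltbp1, Ltbp3, Tgfb3, Tgfbr3, Ltbp2. Only Tgfb3 moved past other genes, from place 5 to place 8, below Ltbp1 and Ltbp3 as well as Tgfb2.

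The sites of the siRNAs and of their partial matches are shown because a siRNA can also act on other transcripts that match bases 2 to 8 of its antisense strand, its seed. The study used a pair of siRNAs against mouse ZBP1. The sources do not say which was used for RNA-seq, or whether both were, together or in separate samples. Both sites lie in Zbp1 on the minus strand of GRCm38, the first at chr2:173215780-173215798 in exon 3 and the second at chr2:173218901-173218919 in exon 1, in the 5′ UTR. The sites are printed 5′ to 3′ as in the GENCODE transcript Zbp1-201, with the 7 bases that pair with the seed in capitals.
siZBP1-1 site: gggaatgacgaCAGCCAAa
siZBP1-2 site: gggtatttgttTCCGGGAt
Of the 10 TGF-β genes, Tgfbr2 was the only one with these 7 bases in its 3′ UTR, and it held both. They lie in exon 8 of Tgfbr2-202, on the minus strand, at chr9:116090081-116090103 and chr9:116087248-116087270, in a 3′ UTR of 6085 bases.
Tgfbr2 match 1: ttttacaaCAGCCAAtaacgttt
Tgfbr2 match 2: gacagacaTCCGGGAggaaggta
A match to the first siRNA was present in 12.1% of the 10868 tested genes with an annotated 3′ UTR, whose median log2 fold change was -0.10 against 0.02 for genes without one. A match to the second was present in 2.47%, with medians of -0.0027 with and 0.0060 without it. The part of these matches in the level of Tgfbr2 (43.4 and 44.4 FPKM in siZBP1) was not tested. No such match was found in the 3′ UTRs of Tgfb2, Tgfb3, Tgfbr3, Ltbp1 and Ltbp2, the other members that fell.

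Upstream sequences are shown for Tgfb1, which did not pass, and for Tgfb2 and Ltbp1, which fell, as examples of how differently the starts of these genes are built. RefSeq promoters (GRCm38.p6, 250 bases before to 50 after a start) were matched for 8 of the 10 genes, at 10 starts, with none for Tgfb3 and Tgfbr3. Each window printed is the 150 bases before the start, 5′ to 3′ on the strand of the gene. Capitals mark matches on either strand to a TATA box (TATAAA), a GC box (GGGCGG), a cAMP response element (TGACGTCA) or a Wnt response element (CTTTG followed by a pair of A or T bases).
Tgfb1, chr7:25686852-25687001, plus strand: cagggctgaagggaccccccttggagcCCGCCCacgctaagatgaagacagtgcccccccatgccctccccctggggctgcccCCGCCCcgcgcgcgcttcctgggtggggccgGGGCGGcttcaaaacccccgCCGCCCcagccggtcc
Tgfb2, chr1:186705990-186706139, minus strand: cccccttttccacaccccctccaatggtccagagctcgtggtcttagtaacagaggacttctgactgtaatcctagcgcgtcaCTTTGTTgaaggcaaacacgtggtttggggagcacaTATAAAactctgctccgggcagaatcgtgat
Ltbp1, chr17:75005379-75005528, plus strand: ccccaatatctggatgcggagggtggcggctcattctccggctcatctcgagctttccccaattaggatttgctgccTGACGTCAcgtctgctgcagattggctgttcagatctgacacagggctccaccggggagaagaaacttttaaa
Tgfb1 had 6 GC boxes over its 300 bases and 77.0% G and C, against a median of 52.7% over 32851 promoters, 35.7% of which hold a GC box. Tgfb2 had a TATA box that begins 31 bases before the start (13.6% of promoters hold one) and a Wnt response element at 67 bases (16.9%), which was also found at 30 bases before the first start of Tgfbr1, the member that rose. Ltbp1 had a cAMP response element at 73 bases before its first start (1.79%). A further 4 motifs were searched, an AP-1 site (TGACTCA or TGAGTCA, 5.2% of promoters), a SMAD motif (CAGACA, 21%), a RUNX motif (TGTGGT, 16.8%) and a TEAD motif (GGAATG, 14.7%). The SMAD motif was found at Tgfb2, at the second starts of Tgfbr1 and Ltbp1 and at Ltbp3, the RUNX motif at the second start of Ltbp1, the AP-1 site at Ltbp3, and the TEAD motif at none of the 10 starts. The starts of Tgfbr1 (its first), Ltbp2 and Tgfbi held 2 GC boxes each, and that of Tgfbr2 held none of the 8 motifs. No motif was shared by Tgfb2, Tgfbr2, Ltbp1 and Ltbp2, the members that fell and had a promoter in the table, and a match is a description of letters only.

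Tgfb3 and Ltbp2, the members with the largest falls, both lie on the minus strand of chromosome 12 (GRCm38), Ltbp2 at chr12:84783212-84876532 and Tgfb3 at chr12:86056745-86079041, with 1180 kb between them. The annotation places 37 genes in that interval, of which 12 were tested, with a median log2 fold change of 0.09. Among the 12, 1 fell and 1 rose, against 14.8% and 13.5% of all genes tested. Jdp2, a repressor of AP-1, fell (-0.72, limma adjusted p = 0.00711) and Arel1 rose (0.29, limma adjusted p = 0.0290).

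Beyond the 10 genes, the pathway was followed in both directions from the ligand. These lists, like the marker lists above, were chosen with earlier results of these data known. Their shares past the threshold describe these genes and are no independent test. Of 13 SMAD transducers and inhibitors, 4 fell and 1 rose, against 14.8% and 13.5% of all genes tested (median -0.03). The 4 that fell are known as inhibitors of signalling: Smurf2, a ubiquitin ligase that removes receptors and SMADs (53.2 ± 4.65 to 27.3 ± 0.171 FPKM, log2 fold change -0.94), the inhibitory SMAD Smad6 (-0.89), the SMAD corepressor Ski (-0.34) and the SMAD phosphatase Ppm1a (-0.25), while Skil, a SMAD corepressor related to Ski, rose (0.25). The inhibitors Smad7 (-0.23), Smurf1 (-0.01), Tgif1 (-0.10) and Tgif2 (0.14) did not pass the test. Smad2 (0.07), Smad3 (0.18) and Smad4 (-0.03), which carry the signal, did not pass either.

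Of 15 tested genes of latency and activation, 3 fell and 7 rose, against 14.8% and 13.5% of all genes (median 0.16). Lrrc32, which encodes GARP, a transmembrane protein that holds latent TGF-β on the cell surface, was at 26.5 and 25.2 FPKM in siScr and at 5.29 and 6.58 FPKM in siZBP1, 4.36-fold lower (log2 fold change -1.96, limma adjusted p = 0.00264). Nrros, which does the same in myeloid cells such as macrophages, rose (0.42), beside the macrophage markers given above. The integrin subunits Itgav (0.44), Itgb3 (0.84), Itgb5 (0.41) and Itgb8 (0.69), whose dimers release latent TGF-β, the plasminogen activator Plat (0.89) and the proprotein convertase Furin (0.18) rose. The matrix metalloproteinases Mmp14 (-0.56) and Mmp2 (-0.42) fell. The integrin subunit Itgb1 (-0.04) and the matrix protein Thbs1 (-0.18) did not pass, and the integrin subunit Itgb6 was under the filter. Itgb8 averaged 0.659 FPKM in siScr and 1.68 FPKM in siZBP1, so that it passed the filter on low values only through the group where it was higher.

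Accessory receptors and extracellular traps fell in 6 and rose in 1 of 11 tested, against 14.8% and 13.5% of all genes (median -0.34). Fmod (-1.81), Dcn (-1.70) and Aspn (-1.61), small proteoglycans that can bind TGF-β in the matrix, fell together with Vasn (-1.55), Eng (-0.34) and Bgn (-0.28), and Htra1, a secreted protease, rose (0.98). Of 7 tested genes of the activin and myostatin branch, 4 fell and 0 rose, against 14.8% and 13.5% of all genes (median -0.46), with Fst, the activin-binding protein follistatin (-1.57), Inhba, the activin A subunit (-1.08), Fstl3 (-0.48) and Inhbb (-0.46) lower. Mstn was at 0 in all samples.

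Genes known in other cells to respond to TGF-β fell in 16 and rose in 1 of 26 tested, against 14.8% and 13.5% of all genes (median -0.65). The smooth muscle and cytoskeletal genes were the lowest. Cnn1 was at 42.6 and 38.8 FPKM in siScr and at 2.86 and 4.39 FPKM in siZBP1 (log2 fold change -3.19, SE 0.17, limma adjusted p = 0.00267). Tagln (-2.74) and Acta2, which encodes smooth muscle actin (-2.37), fell as well. Timp3, an inhibitor of metalloproteinases, fell from 817 ± 120 to 134 ± 8.76 FPKM (SD, n = 2). Fn1, which encodes fibronectin, was the gene that rose (0.54), and Tgfbi, which is also known to be induced by TGF-β, was 1.38-fold higher without passing, as given above. The other 9 genes tested did not pass, among them Pmepa1 (0.22), Klf10 (-0.23), Col1a2 (-0.09) and Col3a1 (0.12). Many of these genes also respond to other signals.

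**Figure D4:**
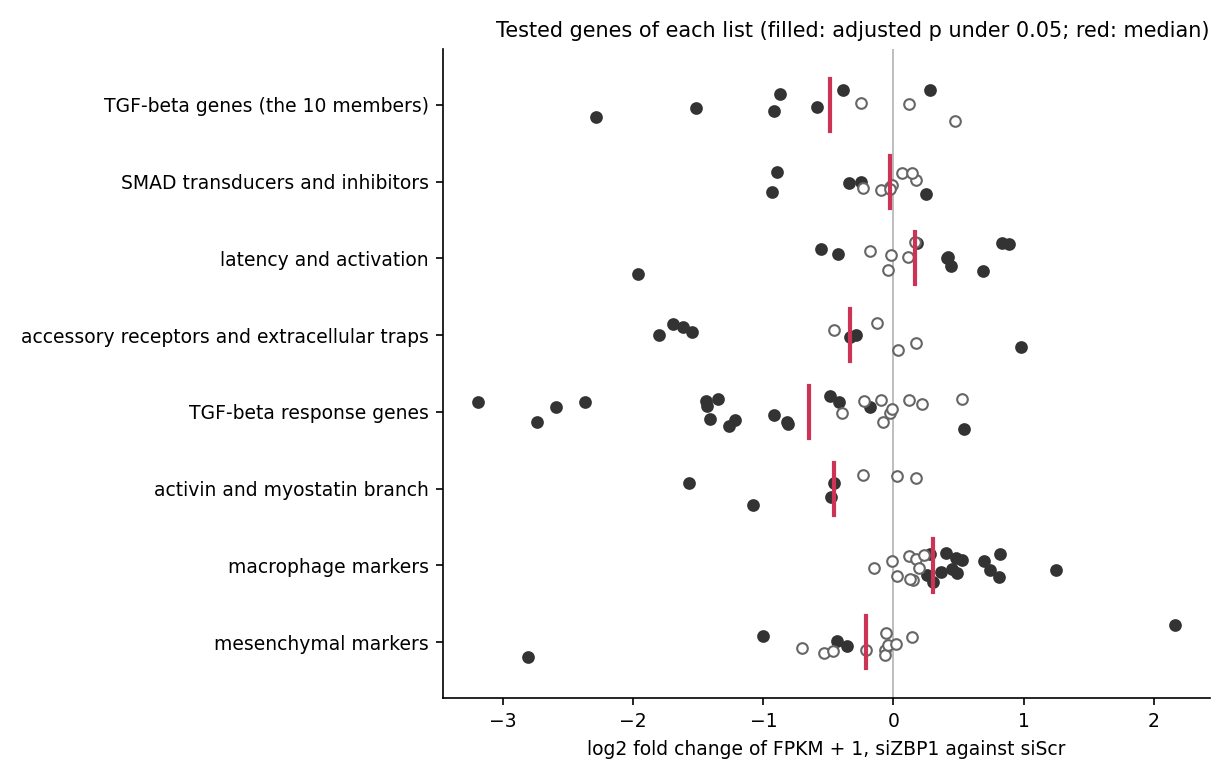
Log2 fold change of FPKM + 1 in siZBP1 against siScr for the tested genes of each list, with filled points where the limma adjusted p was under 0.05 and a red bar at the median. The medians are -0.49 for the TGF-β genes, -0.65 for response genes, 0.16 for latency and activation and 0.30 for macrophage markers, with vertical scatter added for legibility.

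Outside the TGF-β members, samples were left out for Zbp1 and the genes with the largest changes or highest levels in each list, and not for the other genes named here. Where these had passed with all samples, the call was lost in 36 of 51 values with a siZBP1 sample left out and in 3 of 52 with a siScr sample left out, and the direction was the same in each of them. Of the 7 members that passed, Tgfb3 held with either siZBP1 sample left out and Tgfbr2 without replicate 2, with the other 11 of 14 values past the threshold no longer.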

How the data were processed

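RNA-seq of 4 samples of mBMSCs was analysed, 2 transfected with siScr and 2 with siZBP1, grouped by the deposited labels. The deposited values were FPKM per gene and sample, made by the authors from TruSeq libraries mapped with Tophat to mm10. The methods name HTSeq for extraction, whereas the submitters' processing notes list TopHat and Cufflinks. The annotation, filters and read counts are not given in the sources used here, so no counting error could be given. Deposited group means equalled the replicate means within 0.001 FPKM and were not used.

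Genes averaging 1 FPKM or more were fitted on log2(FPKM + 1) by limma 3.58.1 in R 4.3.3, allowing a trend of variance with level. Benjamini-Hochberg adjustment ran over all genes tested, with a threshold of 0.05. The fit was tested on simulated data. Shares and ratios were computed from FPKM per sample and compared by two-sided exact permutation. With all samples, 11 alternative settings of the fit were tried, and each sample was left out in turn. Gene models, transcripts and 3′ UTRs came from GENCODE M21 (GRCm38), promoters from RefSeq. Python 3.11.15 was used with numpy 2.4.6, pandas 2.3.3 and scipy 1.17.1.

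The members and lists were chosen with earlier results of these data known. All 10 members were named, with Zbp1, Ltbp4, the 3 genes with the largest absolute log2 fold change of each list (5 for response genes and for latency and activation) and the 2 most abundant genes of each marker list. The remaining genes that passed in the SMAD, latency, accessory and activin lists, and the SMAD genes and inhibitors that did not pass, were named after their values were seen. So were Itgb1, Itgb6, Thbs1, Pdgfrb, Cd44, Fn1, Pmepa1, Klf10, Col1a2, Col3a1, Mstn, Jdp2 and Arel1, the gene overlapping Ltbp2, and the markers at 0. Some genes that this rule names are not reported here.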

Additional observations from a re-analysis of the deposited data

How the results depend on the processing

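With only 2 samples per group, calls were lost mostly where a siZBP1 sample was left out. A fit without 1 sample leaves a single sample in that group, which is assumed to vary as the other group does. A call lost there therefore does not measure the weight of the sample left out. The median difference between replicates on the log2 scale was 0.092 in siScr and 0.072 in siZBP1. Over these fits, 48 to 1467 genes were lower and 22 to 1248 higher by limma, members lower ranged from 1 to 6 and members higher from 0 to 2, and 0 to 1 members were over 1.5-fold higher. The fewest calls came without siZBP1 replicate 1, and the cause was not tested. Over the settings with all samples, 72 of 75 values of members past the threshold stayed past it and 6 of 33 of the others came past it, and no member changed direction. Without small RNA genes 2 members were higher, since Tgfbi passed. Tgfb3 (5.39-fold) and Ltbp2 (5.28-fold) were the members over 2-fold lower, and the share of all genes past 2-fold was not computed. With Ltbp1 and Ltbp3 alone the difference in the ratio to ligands was -0.0421. Vim ranged from -0.011 to 0.057 and Vwf from -0.21 to 0.051 on the log2 scale with 1 sample left out, reversing without siScr replicate 2. Samples with the same number shared only that number (correlation of their deviations -0.063 over 11959 genes), and with the replicate number as a block 6 members were lower and 2 higher, Tgfbi passing as well, among 1654 genes lower and 1465 higher. Depth is unknown in reads, which limits low genes such as Ltbp2 most.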
